A study of Mus musculus with 4 samples.

Results

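Genes of the unfolded protein response and the integrated stress response were followed in mouse embryonic fibroblasts (MEFs) with and without p53 and doxorubicin. The set holds 40 genes, named by symbol and found through the gene name that the array files give to each probe, out of 31824 gene names on the array. It is made up of 17 genes that the transcription factor ATF4 is known to drive, 16 genes of protein folding and degradation in the endoplasmic reticulum (ER), and 7 sensors and regulators of the pathway. RNA was compared on 4 one-color Agilent arrays, 1 for each of untreated WT (p53+/+) MEFs, doxorubicin-treated WT MEFs, untreated p53-/- MEFs and doxorubicin-treated p53-/- MEFs. Doxorubicin is a DNA-damaging anticancer drug that traps topoisomerase II on DNA, and its dose and duration for the arrays are not given in the sources used here. MEFs are fibroblasts grown from whole embryos, so they hold mixed fibroblast lineages, and neither the number of embryos behind each culture nor whether the untreated cells received a vehicle is stated. With 1 array per condition, no difference below has a replicate check, no p-value was calculated, and an effect of slide position cannot be told apart from one of condition.

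Cells sense unfolded protein in the ER through the membrane proteins PERK (Eif2ak3), IRE1 (Ern1) and ATF6. PERK, and outside the ER the amino acid sensor GCN2 (Eif2ak4), phosphorylate the translation initiation factor eIF2, which slows protein synthesis in general but favors translation of ATF4. ATF4 switches on genes for amino acid supply, redox balance and feedback, whereas ATF6 and the spliced form of XBP1 made by IRE1 switch on ER chaperones and genes of ER-associated degradation (ERAD). Because ATF4 and XBP1 are controlled mainly at translation and splicing, the arrays show the level of their mRNA and not their activity.

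Every value is a spot intensity (signal) as deposited, and every ratio is the log2 difference of signals after each array was set relative to its own 75th percentile. Those percentiles were signals of 2073.9 for untreated WT, 1818.6 for doxorubicin-treated WT, 1880.9 for untreated p53-/- and 2421.3 for doxorubicin-treated p53-/- MEFs, so a log2 ratio is not the plain ratio of 2 printed signals. Of the 40 genes, 39 were well above background on all 4 arrays by the mark of the scanner software, and the same number lay above the brightest negative control spot of every array. The exception in both was Fgf21. For 240 probes spotted 10 times on each array, the log2 signals of the spots had a standard deviation (SD) of 0.08, which gives 0.11 for a ratio of 2 arrays and 0.15 for a difference of 2 ratios. It measures the printing and reading of spots, not separate cultures or labelings. Creld2, a secreted ER protein, was among the probes spotted 10 times, and its signals ranged from 24916 to 28339 over the 10 spots in untreated WT MEFs. For the 7 genes with several probes, the probes disagreed by at most 0.51 and by a median of 0.23 in their log2 ratios to doxorubicin, and they had the same sign in 14 of 14 cases.

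The labels were checked with p53 and 2 of its targets. For Trp53, the WT signals were 1228 without and 3442 with the drug, and the p53-/- signals were 442.4 and 543.4. The position of its probe relative to the deletion was not analysed here. Cdkn1a, the cell cycle inhibitor p21, had signals of 28620, 106000, 976.7 and 5912 in the order untreated WT, treated WT, untreated p53-/- and treated p53-/-, which is the order used for all signals below. Mdm2, the ubiquitin ligase that restrains p53, had signals of 52280, 183100, 13660 and 24290. Both targets were lower on each p53-/- array than on either WT array. Fibroblast markers were well above background on all arrays (10 of 10, led by Col1a2), with summed levels of 836.7, 682.8, 688.6 and 563.1 in units of each array's 75th percentile. In WT MEFs with doxorubicin, Lum was 27.97-fold lower, Pdgfra 10.28-fold, Pdgfrb 5.43-fold and Dcn 2.47-fold, so that 4 of 10 fibroblast markers were at least 2-fold lower, where 10.4% of all genes were (median log2 ratio -0.61). Above 0 there were Col1a1 (0.26), Thy1 (0.25) and Vim (0.02). The p53-/- MEFs had 2 of 10 at least 2-fold lower, Lum and Pdgfrb, where 6.89% of all genes were (median -0.27), and Thy1 (0.80) and Dcn (0.30) were above 0. Among markers of other cell types, Ptprc, Epcam, Cdh5, Myod1 and Myog were at or below the brightest negative control on every array. Of the 7 leukocyte markers, led by Itgam, 3 were above the brightest negative control on all arrays, and Ptprc was marked well above background on all arrays without passing that control. Their summed levels were 15.6, 19.7, 17.8 and 14.5. The 4 epithelial markers, led by Krt18, had summed levels of 5.55, 9.53, 5.25 and 17.7, the highest being that of treated p53-/- MEFs. The 3 endothelial markers, led by Kdr, had 3.66, 4.16, 2.90 and 2.29, and the 3 muscle markers, led by Des, had 0.83, 0.93, 0.45 and 0.26. In bulk RNA of this kind, fewer cells of a type and less RNA per cell cannot be told apart, and the part of these markers in the results below was not tested.

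The first question was whether doxorubicin moved the ATF4 targets and the ER folding genes together. In WT MEFs, the ATF4 targets were lower with doxorubicin by a median log2 ratio of -1.27 over 17 genes, and 16 of them had a ratio below 0. The ER folding genes had a median of -0.43 over 16 genes, 10 of them below 0. The lists lay closer in p53-/- MEFs, with a median of -0.76 over the 16 ATF4 targets measured and -0.61 over the 16 ER folding genes. The median over all genes measured was 0.01 in WT (17546 genes) and 0.00 in p53-/- MEFs (16978 genes). The ATF4 median minus the ER median was therefore -0.83 in WT and -0.15 in p53-/- MEFs. Over the 16 ATF4 targets measured in both genotypes, the WT difference was -0.71. With Fgf21 set at its bound (below), the ATF4 median in p53-/- MEFs was -0.85. Gene by gene, WT minus p53-/- ratios had a median of -0.23 for the ATF4 targets (10 lower in WT, 6 in p53-/-). For the ER folding genes this median was 0.20 (5 and 11). The further ATF4-linked and ER genes (below) did not lie closer in p53-/- MEFs. Their medians were -0.93 and -0.43 in WT and -0.91 and -0.30 in p53-/- MEFs. The 10 fibroblast markers had medians of -0.61 (WT) and -0.27 (p53-/-), with 3 and 2 of them above 0, and their part in these values was not tested.

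At least 2-fold lower with doxorubicin in WT MEFs were 10 of 17 ATF4 targets, 4 of 16 ER folding genes and 3 of 7 sensors and regulators, or 17 of 40 in all, where 1830 of all 17546 genes (10.4%) were. Ppp1r15a and Dnajb9 were at least 2-fold higher, where 11.0% of all genes (1936) were. In p53-/- MEFs, 6 of 16 ATF4 targets, 4 of 16 ER folding genes and 2 of 7 sensors and regulators were at least 2-fold lower, against 6.89% of all genes (1170 of 16978). The same 2 genes were at least 2-fold higher, against 9.24% (1569). Scaling to the array median instead put the median of all genes at -0.27 (WT) and -0.30 (p53-/-), with 1322 genes higher and 2796 lower in WT and 956 higher and 2104 lower in p53-/- MEFs. Relative to these medians, the ATF4 targets lay at -1.28 in WT and -0.76 in p53-/- MEFs and the ER folding genes at -0.44 and -0.61. These equal the values with the 75th percentile by construction, because both scalings shift all genes of an array by the same amount. Under array median scaling, 0 members were at least 2-fold higher in either genotype, and 22 (WT) and 16 (p53-/-) were at least 2-fold lower.

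**Figure D1:**
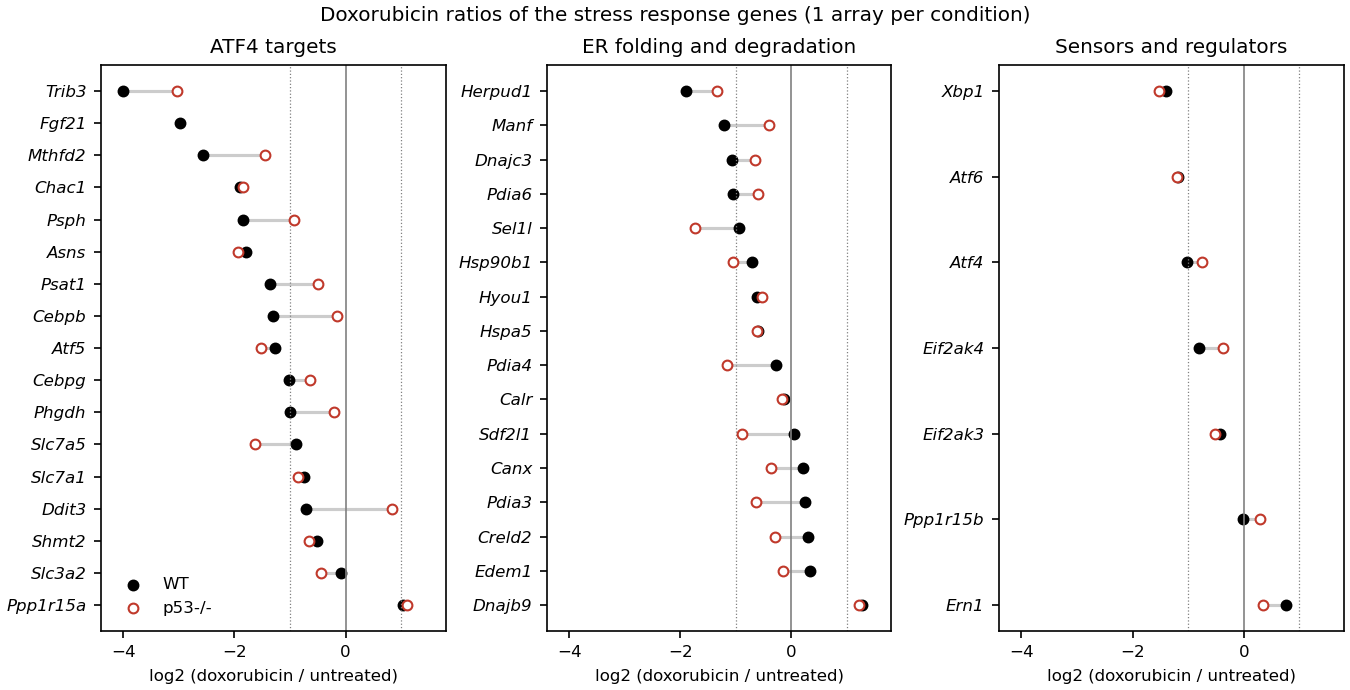
Log2 ratio of doxorubicin-treated over untreated MEFs (x axis) for each of the 40 genes (y axis), in WT (filled) and p53-/- (open) MEFs, 1 array per condition; a line joins the genotypes of a gene and dotted lines mark 2-fold. Most points of the left panel lie below 0, from Trib3 at -4.00 in WT MEFs to Ppp1r15a at 1.11 in p53-/- MEFs, and Fgf21 has no open point because it was not well above background in treated p53-/- MEFs.

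Over the 39 genes measured in both genotypes, the WT and p53-/- ratios had a Pearson correlation of 0.78 (Spearman 0.66), and over all 16538 such genes 0.49 (Spearman 0.46). These are correlations across genes, which are not independent replicates. Below 0 in both genotypes were 14 of 16 ATF4 targets, 10 of 16 ER folding genes and 5 of 7 sensors and regulators, where 32.8% of all genes were (5428 of 16538). At least 2-fold lower in both, where 3.33% of all genes were (550), were 5 ATF4 targets (Trib3, Asns, Chac1, Atf5 and Mthfd2), the ER gene Herpud1 and the regulators Xbp1 and Atf6. At least 2-fold higher in both were Ppp1r15a and Dnajb9, against 3.97% of all genes (657).

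**Figure D2:**
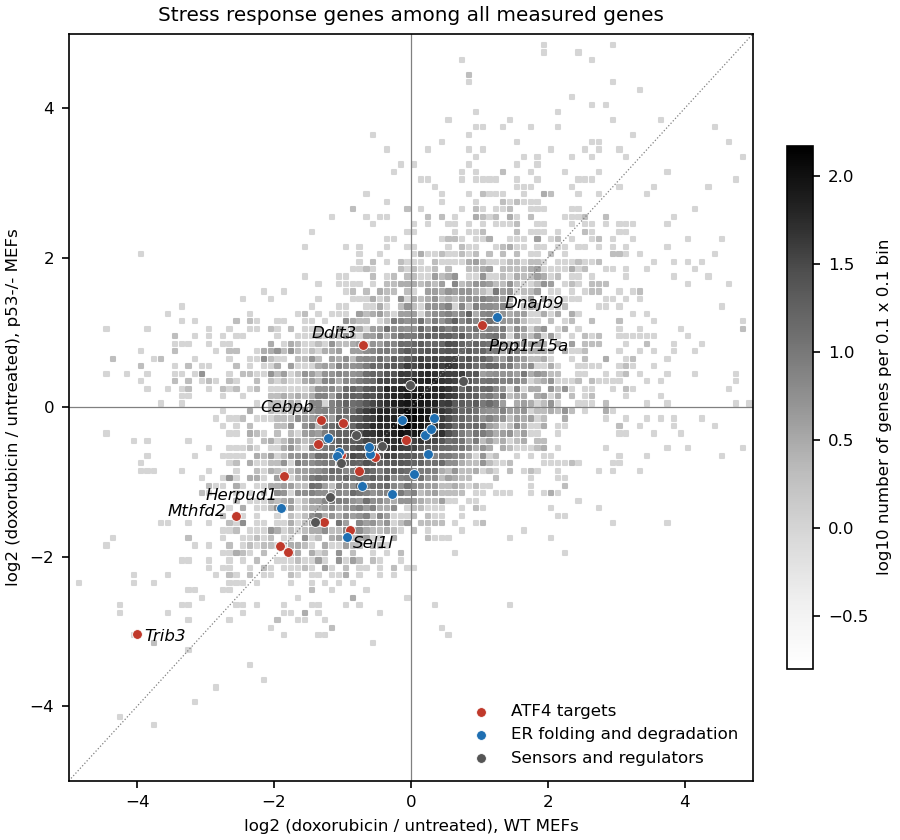
Log2 ratio to doxorubicin in WT MEFs (x axis) against p53-/- MEFs (y axis); grey squares count all measured genes in bins of 0.1 by 0.1, colored points are the 39 genes of the set measured in both, and the dotted line marks equal ratios. Of all 16538 genes, 25 lie outside the axes, which end at -5 and 5; Trib3 is far down the diagonal, and 2 colored points lie above 0 in p53-/- and below 0 in WT MEFs, Ddit3 (-0.71 in WT and 0.83 in p53-/-) and, close to the center, Ppp1r15b.

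The medians of the 7 sensors and regulators were -0.80 (WT) and -0.52 (p53-/-), and the mRNA of the transcription factors among them was lower with doxorubicin. Atf4 itself (probe at chr15:80087902-80087961 of mm9, the build of all probe positions here) had signals of 219100, 95070, 178100 and 136900. Its log2 ratio was -1.01 in WT and -0.74 in p53-/- MEFs, so both treated arrays were below both untreated ones. Xbp1 (chr11:5425816-5425875) had signals of 48000, 15860, 29210 and 13010. The ratios were -1.41 in WT and -1.53 in p53-/- MEFs. Atf6, the membrane-bound factor cut in the Golgi, had signals of 1271, 493.3, 827.1 and 463.5, with ratios of -1.17 (WT) and -1.20 (p53-/-). For both genes the ratios of the genotypes differed by no more than the SD of a difference between repeat spots.

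Within each genotype, the ratios to doxorubicin of the kinases and the phosphatase subunit were smaller in size than those of Atf4, Xbp1 and Atf6. Ern1, which encodes the IRE1 kinase and RNase that splices Xbp1, was the only sensor higher with doxorubicin in WT MEFs, with a ratio of 0.77, and it had 0.35 in p53-/- MEFs. Its signals were 541.1, 806.5, 528.1 and 869.3. Eif2ak3 (PERK) had ratios of -0.43 (WT) and -0.52 (p53-/-). Eif2ak4 (GCN2) had -0.80 in WT and -0.37 in p53-/- MEFs. Ppp1r15b, the constitutive subunit that targets a phosphatase to eIF2, had -0.02 in WT and 0.30 in p53-/- MEFs. None of these 4 genes reached 2-fold in either genotype. Of all genes, 10.4% (WT) and 6.89% (p53-/-) were at least 2-fold lower and 11.0% and 9.24% at least 2-fold higher.

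Trib3 had the lowest ratio of the 17 ATF4 targets in WT MEFs and of the 16 with a measured ratio in p53-/- MEFs, where Fgf21 had only a bound. This gene, a pseudokinase that restrains ATF4 (chr2:152163161-152163220), had signals of 37870 in untreated and 2072 in treated WT MEFs, and of 18390 and 2898 in p53-/- MEFs. Trib3 was 16.02-fold lower with doxorubicin in WT (log2 ratio -4.00) and 8.17-fold lower in p53-/- MEFs (-3.03). Of all measured genes, 15 had a lower ratio in WT and 10 in p53-/- MEFs. Chac1, an enzyme that degrades glutathione (chr2:119179990-119180049), had signals of 25830, 6039, 17620 and 6276. Its ratios of -1.91 (WT) and -1.85 (p53-/-) differed by 0.05, within the spread of repeat spots. Asns, which makes asparagine (chr6:7625171-7625228), had signals of 86140, 21740, 50080 and 16880. It was 3.47-fold lower in WT (-1.80) and 3.82-fold lower in p53-/- MEFs (-1.93). For Trib3, Chac1 and Asns, both treated arrays lay below both untreated arrays.

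Fgf21, a secreted hormone better known from liver (chr7:52869305-52869364), was the dimmest gene of the list. Its signals were 934.7, 103.4, 312.7 and 19.84, the last not well above background. In WT MEFs the log2 ratio was -2.99 (7.92-fold lower). In p53-/- MEFs it was at least 4.62-fold lower, with the treated value set to the dimmest signal that passed as well above background on its array. Its value for untreated p53-/- MEFs was above the brightest negative control of that array, 250.14.

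Of the 16 ATF4 targets with a promoter in the RefSeq table used (build GRCm38.p6, 250 bases before to 50 after the start site), 4 held the core of the C/EBP-ATF response element, searched as TGATGNAA on both strands. They are shown because they carry the letters that ATF4 is known to bind as a partner of C/EBP proteins. Genes of this kind are often listed because they have such elements, so their share is not independent of the list. Of all genes in the table, 4.51% held the core (1219 of 27025), and of all promoters 3.97% (1304 of 32851). It was also in 1 of 14 ER folding genes and none of the 5 sensors and regulators. Capitals mark the match, and each sequence is read along the gene.
Asns: cccagccacaTGATGAAActtcccgcac
Chac1: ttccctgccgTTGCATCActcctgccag
Fgf21: gacccccccaTTGCATCAtccgtccagg
Trib3: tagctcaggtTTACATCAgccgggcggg
The windows lie at chr6:7693215-7693242 (minus strand) for Asns, chr2:119351039-119351066 (plus strand) for Chac1, chr7:45615612-45615639 (minus strand) for Fgf21 and chr2:152344029-152344056 (minus strand) for Trib3. The first 3 matches begin 23, 193 and 139 bases before the start site, and that of Trib3 begins 14 bases after it. Chac1, Fgf21 and Trib3 hold the element on the opposite strand, so it reads as its reverse complement. These 4 genes had WT log2 ratios of -1.80, -1.91, -2.99 and -4.00. Targets searched without a match were also below the list median of -1.27, namely Mthfd2 (-2.56), Psph (-1.85), Psat1 (-1.35) and Cebpb (-1.31). A match in these letters is not a binding site, and ATF4 binding was not measured.

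Genes of serine synthesis and one-carbon metabolism formed a group of 5 that was below 0 in both genotypes, with a median log2 ratio of -1.35 in WT and -0.66 in p53-/- MEFs. Mthfd2, the mitochondrial one-carbon dehydrogenase (chr6:83256518-83256577), had signals of 7972, 1186, 7968 and 3733. It was 5.89-fold lower in WT (-2.56) and 2.75-fold lower in p53-/- MEFs (-1.46), from untreated signals that were nearly equal. Psph, the last enzyme of serine synthesis, had signals of 11980, 2908, 6989 and 4738, with ratios of -1.85 (WT) and -0.93 (p53-/-). Psat1, the transaminase of the pathway, had signals of 41880, 14360, 35470 and 32430, with ratios of -1.35 and -0.49. Phgdh, the first enzyme, had 49130, 21540, 51220 and 57060, with log2 ratios of -0.999 and -0.21, so that in WT MEFs it fell just short of 2-fold. Shmt2, which passes the serine carbon to folate, had 15790, 9652, 19090 and 15520, and its ratios of -0.52 and -0.66 differed by less than the SD of a difference between repeat spots. For Mthfd2, Psph, Psat1 and Phgdh the WT ratio was lower than the p53-/- ratio by 0.79 (Phgdh) or more, which is more than that SD of 0.15. No test of these differences was possible with 1 array per condition.

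None of the 3 amino acid transporters reached 2-fold in WT MEFs, where 10.4% of all genes were lower and 11.0% higher. In p53-/- MEFs Slc7a5 alone was at least 2-fold lower, where 6.89% of all genes were. A list of 3 genes is too short to set against these shares. Slc7a5, the light chain of the large neutral amino acid carrier, had signals of 8766, 4154, 7462 and 3086. Its ratios were -0.89 in WT and -1.64 in p53-/- MEFs, and its probes disagreed by 0.44 and 0.51. Slc3a2, the heavy chain of the same carrier, had ratios of -0.08, within the SD of repeat spots, and -0.44. Slc7a1, the cationic amino acid carrier, had -0.76 and -0.85, which differed by less than the spread of repeat spots.

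Of the 4 transcription factors of the list, Ddit3 had opposite signs in the 2 genotypes and the others were below 0 in both. Ddit3, which encodes the pro-death factor CHOP (chr10:126732518-126732821), had signals of 10830 in untreated and 5820 in treated WT MEFs, and of 6318 and 14440 in p53-/- MEFs. It was 1.63-fold lower with doxorubicin in WT (-0.71) and 1.78-fold higher in p53-/- MEFs (0.83). With array median scaling these ratios were -0.98 and 0.53. The difference of the log2 ratios was -1.53, and of 16538 genes 767 had a lower difference. Cebpb, a partner of ATF4 and CHOP, had signals of 16710, 5918, 11110 and 12780, with ratios of -1.31 (WT) and -0.16 (p53-/-). Cebpg, another such partner, had 2428, 1051, 1815 and 1502, with ratios of -1.02 and -0.64. Atf5, itself under the control of eIF2 phosphorylation, had 188400, 68580, 102600 and 45730, and was lower in both, by -1.27 and -1.53. Ddit3 was the only one of the 4 that was higher with doxorubicin in either genotype.

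Ppp1r15a (GADD34), the inducible subunit that reverses eIF2 phosphorylation, was the only ATF4 target above 0 in WT MEFs, and with Ddit3 it was above 0 in p53-/- MEFs. Its signals were 14860, 26720, 14160 and 39300 (chr7:52778320-52778379), both treated arrays being above both untreated ones. The WT ratio of 1.04 and the p53-/- ratio of 1.11 (log2) differed by 0.07. Ppp1r15a had ratios of 0.76 (WT) and 0.81 (p53-/-) under array median scaling, above 0 but short of 2-fold. With quantile normalization the WT ratio of Ppp1r15a was 0.98, also short of 2-fold, and its p53-/- ratio was 1.11.

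**Figure D3:**
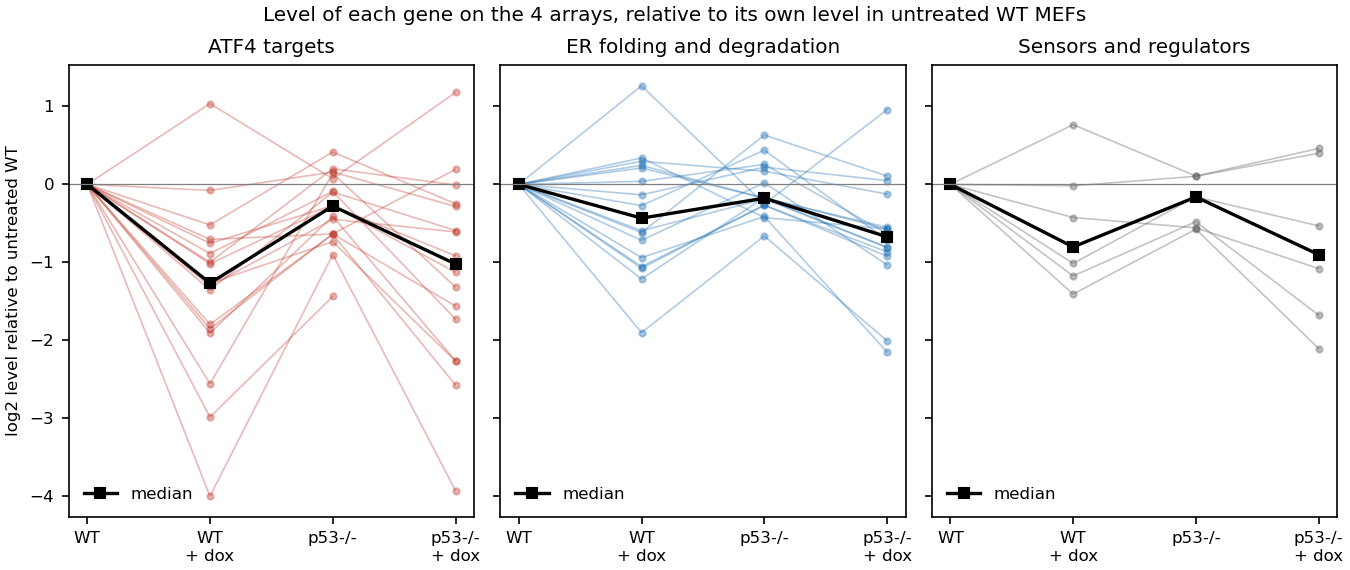
Level of each gene on the 4 arrays (x axis) relative to its own level in untreated WT MEFs (y axis, log2), with 1 thin line per gene, black squares for the median of a list, and no point where a gene was not well above background. The ATF4 median lies at -1.27 in treated WT, -0.28 in untreated p53-/- and -1.02 in treated p53-/- MEFs, and the ER median at -0.43, -0.18 and -0.67.

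ER folding and degradation genes spread on both sides of 0 in WT MEFs and lay mostly below 0 in p53-/- MEFs (15 of 16). Hspa5 (BiP), the main HSP70 chaperone of the ER and the usual marker of the unfolded protein response (chr2:34631913-34631972), had signals of 166800, 96870, 132800 and 111000. Its ratios of -0.59 (WT) and -0.62 (p53-/-) differed by 0.03, within the spread of repeat spots. Hsp90b1 (GRP94), the ER HSP90, had 154000, 82070, 141700 and 87860, with ratios of -0.72 and -1.05. Hyou1, an HSP70-like exchange factor, was dim, with signals of 275.5, 157.3, 387.4 and 346.3, and had ratios of -0.62 and -0.53. The lectin chaperones had small ratios, -0.13 in WT and -0.17 in p53-/- MEFs for Calr and 0.21 and -0.37 for Canx. Sdf2l1, part of a chaperone complex with BiP, had 0.04 in WT and -0.89 in p53-/- MEFs. The WT ratios of Canx and Sdf2l1 turned below 0 (-0.07 and -0.24) with array median scaling.

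The J proteins, which recruit BiP to its clients, went in opposite directions. Dnajb9 (ERdj4), an inhibitor of IRE1 (chr12:45307313-45307372), had signals of 2136, 4501, 1625 and 4845. It was 2.40-fold higher in WT (1.27) and 2.32-fold higher in p53-/- MEFs (1.21). With array median scaling it no longer reached 2-fold (0.99 and 0.91). Dnajc3 (p58IPK), an inhibitor of PERK, had 4878, 2028, 3679 and 3004, with ratios of -1.08 and -0.66. Both treated arrays were above both untreated arrays for Dnajb9 and below them for Dnajc3. The 2 probes of Dnajb9 disagreed by 0.47 in WT and 0.45 in p53-/- MEFs, with the same sign.

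The disulfide isomerases differed among themselves. Pdia6 had signals of 149300, 63020, 112300 and 95630, with ratios of -1.05 (WT) and -0.60 (p53-/-). Pdia4 had 3381, 2454, 4158 and 2403, with -0.27 and -1.16, and Pdia3 had 32520, 33740, 26070 and 21690, with 0.24 and -0.63. The WT ratio of Pdia3 was -0.03 with array median scaling. Pdia6 was thus lower in WT and the other two in p53-/- MEFs. Of the secreted ER proteins, Manf had 20380, 7705, 16440 and 15980, with ratios of -1.21 (WT) and -0.40 (p53-/-), whereas Creld2 had 0.30 and -0.29.

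The ERAD genes held the lowest ratio of the ER list in each genotype. Herpud1, a scaffold of the degradation complex (chr8:96919117-96919176), had signals of 16200, 3799, 9283 and 4702. It was 3.74-fold lower in WT (-1.90) and 2.54-fold lower in p53-/- MEFs (-1.35). Sel1l, the adaptor of the ubiquitin ligase of ERAD, had 4050, 1850, 2760 and 1064, with ratios of -0.94 and -1.74. Edem1, which extracts misfolded glycoproteins, had 0.34 in WT and -0.14 in p53-/- MEFs.

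The ER stress response element, searched as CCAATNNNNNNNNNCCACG on both strands, was found in the promoters of 7 of the 14 ER folding genes in the table, against 0.137% of all genes (37 of 27025), 0.119% of all promoters (39 of 32851) and none of the 16 ATF4 targets or 5 sensors and regulators. ATF6, with the CCAAT-binding factor NF-Y, is known to act through this element. The sequences are shown because they set the ER genes apart from the ATF4 targets by a property that expression did not enter, although genes of this kind are often listed because they have such elements. Capitals mark the whole match, in the direction of the gene, and 3 of the 8 matches read on the opposite strand.
Calr: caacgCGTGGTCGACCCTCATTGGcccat
Canx: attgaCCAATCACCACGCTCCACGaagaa
Creld2: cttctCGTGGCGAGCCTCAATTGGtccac
Dnajc3: cacaaCCAATCAGCGCCAACCACGacccg
Hsp90b1, distal: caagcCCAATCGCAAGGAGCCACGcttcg
Hsp90b1, proximal: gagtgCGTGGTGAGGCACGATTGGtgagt
Hspa5: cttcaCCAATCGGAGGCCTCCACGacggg
Pdia6: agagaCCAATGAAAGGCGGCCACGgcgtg
In GRCm38.p6 these windows lie at chr8:84847070-84847098 for Calr, chr11:50325795-50325823 for Canx, chr15:88819515-88819543 for Creld2, chr14:118937822-118937850 for Dnajc3, chr10:86705633-86705661 and chr10:86705528-86705556 for Hsp90b1, chr2:34772020-34772048 for Hspa5 and chr12:17266486-17266514 for Pdia6. Calr, Canx and Hsp90b1 are on the minus strand and the others on the plus strand. The matches begin between 65 bases (Hspa5) and 212 bases (Hsp90b1) before the start site. The CCAAT box alone, which is part of the element, was in 14 of 14 ER promoters, 9 of 16 ATF4 target promoters, 41.1% of all genes and 37.4% of all promoters. The 7 genes with the element had WT ratios from -1.08 (Dnajc3) to 0.30 (Creld2), within the range of -1.90 to 1.27 of the whole list.

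Of the 35 members with a promoter in the table, Herpud1 alone had elements of both kinds. Its promoter held the C/EBP-ATF core and the shorter ER element, searched as ATTGGNCCACG, which 0.0444% of all genes (12 of 27025) and 0.0365% of all promoters had (12 of 32851).
Herpud1, C/EBP-ATF core: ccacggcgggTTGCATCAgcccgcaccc
Herpud1, short ER element: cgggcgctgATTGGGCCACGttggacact
These windows lie on the plus strand at chr8:94386307-94386334 and chr8:94386368-94386396, and the matches begin 112 and 52 bases before the start site. Among the 16 ER folding genes, Herpud1 had the lowest WT ratio, -1.90.

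The second question was how the genotypes compare. These ratios use the same 4 arrays as those above, so they are a second reading of the same signals. Without doxorubicin, p53-/- and WT MEFs were close, with a median log2 ratio (p53-/- over WT) of -0.28 for the ATF4 targets and -0.18 for the ER folding genes, against 0.00 for all 17318 genes. Only Fgf21 was at least 2-fold lower in p53-/- MEFs (-1.44), where 2.61% of all genes were, and none of the 40 was at least 2-fold higher, where 2.15% were. Other ATF4 targets below WT included Trib3 (-0.90), Atf5 (-0.74), Asns and Psph (both -0.64) and Ddit3 (-0.64).

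With doxorubicin, the ATF4 targets had a median of 0.12 over 16 genes (0.10 with Fgf21 at its bound) and the ER folding genes one of -0.31, against 0.00 for all 17918 genes. Mthfd2 was at least 2-fold higher in p53-/- MEFs (1.24), where 11.9% of all genes were, and Sel1l (-1.21) and Pdia3 (-1.05) were at least 2-fold lower, where 10.3% were. These counts moved with the processing. Quantile normalization gave 2 members higher and 1 lower (all genes 2226 and 1912). Array median scaling gave 1 higher and 3 lower (all genes 1896 and 2041). Fgf21 was at least 1.58-fold lower. The serine and one-carbon genes were higher in treated p53-/- than in treated WT MEFs in 5 of 5 (median 0.76), with Phgdh at 0.99 and Psat1 at 0.76, and 3 of 5 were higher without the drug (median 0.14). Ddit3 (0.90), Cebpb (0.70) and the secreted ER protein Manf (0.64) were also above WT with doxorubicin and below it without. Of the 16 ATF4 targets measured with doxorubicin, 10 were above WT and 6 below it. Those below included Atf5 (-0.998), Slc7a5 (-0.84) and Asns (-0.78). The 3 ERAD genes were below WT in both states, with medians of -0.43 untreated and -0.91 treated. With doxorubicin, however, Herpud1 lay at -0.11, within the SD of a ratio of repeat spots, and Sel1l and Edem1 at -1.21 and -0.91.

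**Figure D4:**
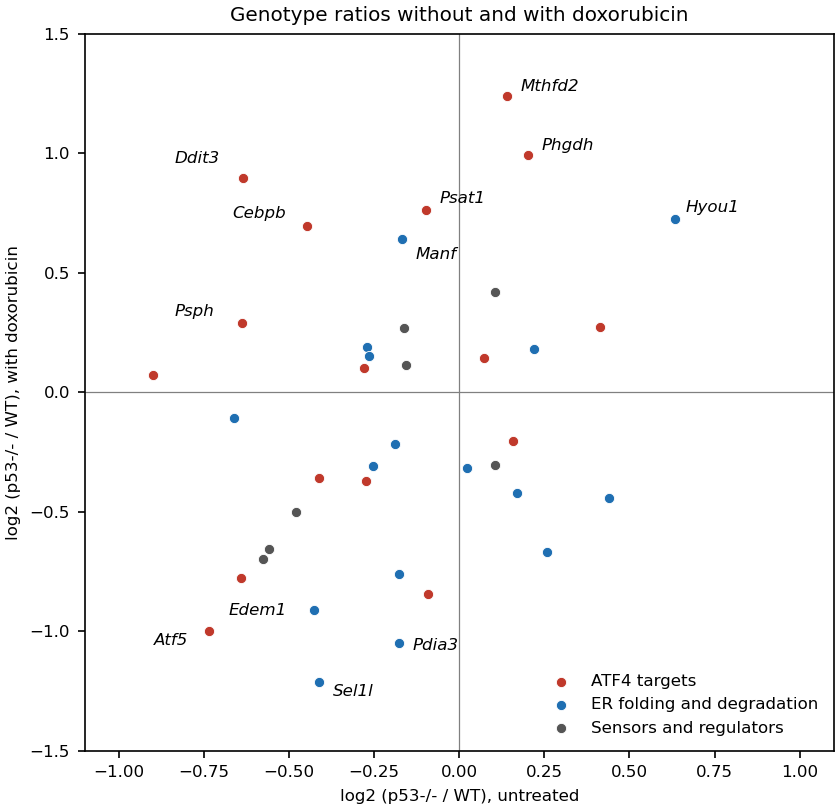
Log2 ratio of p53-/- over WT MEFs without doxorubicin (x axis) and with it (y axis), 1 point for each of the 39 genes well above background on all 4 arrays, colored by list. Mthfd2 and Phgdh are highest with the drug (1.24 and 0.99) although near 0 without it, Ddit3 lies at -0.64 without and 0.90 with it, and Sel1l and Pdia3 lie lowest with it.

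Other genes of the pathways were read from further lists, which were also chosen with earlier results of these data known. Of 36 further genes linked to ATF4, 17 were at least 2-fold lower with doxorubicin and 2 at least 2-fold higher in WT MEFs, where 10.4% and 11.0% of all genes were, with a median of -0.93. Among the same genes in p53-/- MEFs, 14 were lower and 1 higher, against 6.89% and 9.24% of all genes, with a median of -0.91. The lowest WT ratios were those of the proline and alanine enzymes Pycr1 (-2.61) and Gpt2 (-2.58) and the folate enzymes Aldh1l2 (-2.55) and Shmt1 (-2.16). The lowest p53-/- ratios were those of Aldh1l2 (-2.34), the lipoprotein receptor Vldlr (-2.28), Pycr1 (-2.25) and Gpt2 (-1.99). The aminoacyl-tRNA synthetases, grouped after the values were seen, were below 0 in both genotypes in 12 of 12, where 32.8% of all genes were, with a median of -0.87 in each. At least 2-fold lower were 5 of 12 in WT and 3 of 12 in p53-/- MEFs.

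At the upper end of that list in WT MEFs were Cbs, the first enzyme of transsulfuration (3.18), the stress cytokine Gdf15 (1.28), the secreted protein Stc2 (0.94) and Sesn2, an inhibitor of mTORC1 that is also a p53 target (0.73). Cbs had signals of 423.2, 3374, 451.1 and 534.5, so 1 array, treated WT, stood above the others. The p53-/- ratio of Cbs was -0.12. Gdf15 had signals of 3927, 8378, 835.6 and 1676, and Sesn2 of 9989, 14480, 4514 and 2289. Both Gdf15 and Sesn2 were lower on each p53-/- array than on either WT array. In p53-/- MEFs the highest were Atf3, a stress-induced factor of the ATF family (2.14), Gdf15 (0.64), Stc2 (0.59) and Shmt1 (0.49). Atf3 had signals of 1321, 691.9, 1133 and 6424, highest in treated p53-/- MEFs as for Ddit3. Shmt1 had 497.6, 97.84, 981.8 and 1770. Its treated WT signal was above the brightest negative control of that array, 77.46.

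Of 32 further ER genes, 31 were found on the array by name (Vimp was not), and 29 had a ratio in WT and 28 in p53-/- MEFs. Genes with only a bound are left out of the counts and the order below. These were Derl3, at least 2.07-fold higher with doxorubicin in WT and at least 1.53-fold lower in p53-/- MEFs, Fkbp11, at least 1.93-fold lower in WT, and Edem2, at least 1.33-fold lower in p53-/- MEFs. The untreated p53-/- signals of Derl3 (116.6) and Edem2 (107.8) were below that array's brightest negative control, 250.14. The untreated WT signal of Fkbp11 (97.7) was likewise below 108.25, so these directions rest on signals in the range of negative controls. At least 2-fold lower in each genotype were 3 and at least 2-fold higher 1, with medians of -0.43 in WT and -0.30 in p53-/- MEFs. Of all genes, 10.4% were lower and 11.0% higher in WT MEFs and 6.89% and 9.24% in p53-/- MEFs, so that 3 of 29 lower in WT MEFs was near the share of all genes. The lowest measured ratios in WT MEFs were those of the collagen-related isomerase Fkbp14 (-1.71), the COPII coat subunit Sec24d (-1.57), the ERAD channel protein Derl1 (-1.08) and the translocon-associated Ssr1 (-0.91). The lowest measured in p53-/- MEFs were those of Sec24d (-1.74), Fkbp14 (-1.18), the thioredoxin-like Txndc5 (-1.12) and Ostc (-0.99), a subunit of the glycosylation complex. The highest measured in WT MEFs were those of the oxidase Ero1lb (1.24), Edem2 (0.48), the signal peptidase subunit Sec11c (0.30) and the lectin Os9 (0.13), and in p53-/- MEFs Sec11c (1.13), Ero1lb (0.38), Dnajb11 (0.27) and Os9 (0.17).

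Of 11 further eIF2 kinases, eIF2 subunits and membrane-bound factors, the interferon-induced eIF2 kinase PKR (Eif2ak2) was the highest in both genotypes. Its signals were 993.4, 1623, 1146 and 5921, with ratios of 0.90 (WT) and 2.005 (p53-/-). The heme-regulated kinase Eif2ak1 had 0.61 and 0.82, eIF2 itself (Eif2s1) 0.05 and 0.38, and Eif2b5, of its exchange factor, 0.19 and 0.28. The membrane-bound factors Creb3 and Creb3l2 had 0.79 and 0.55, and -0.06 and -0.49, and the ATF6 relative Atf6b had 0.09 and -0.44. The Golgi proteases that cut such factors had -0.48 and -0.18 (Mbtps1) and, in WT MEFs, -0.33 (Mbtps2, at least 2.56-fold lower in p53-/- MEFs). The untreated p53-/- signal of Mbtps2, 173.4, was below the brightest negative control of that array, 250.14. Creb3l1, a factor cut in the Golgi like ATF6, had 0.59 in WT and -0.92 in p53-/- MEFs, and Wfs1, an ER membrane protein, had -1.69 and -0.79. The median of the list was 0.09 in WT and 0.05 in p53-/- MEFs.

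**Figure D5:**
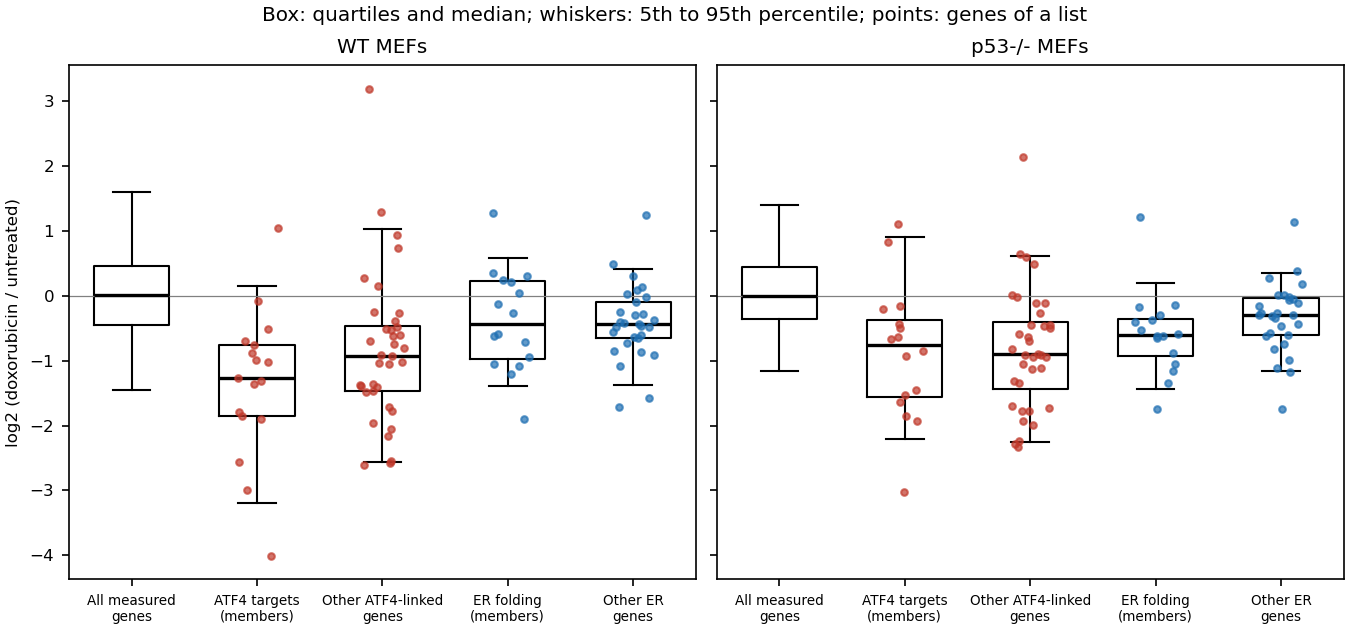
Log2 ratio to doxorubicin (y axis) in WT (left) and p53-/- MEFs (right) for all measured genes, the 17 ATF4 targets, 36 further ATF4-linked genes, the 16 ER folding genes and 32 further ER genes; boxes give the quartiles and median, whiskers the 5th and 95th percentile, and points single genes with a measured ratio. Both ATF4 lists have medians between -1.27 and -0.76 and both ER lists between -0.61 and -0.30, with all genes at 0.01 and 0.00.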

How the data were processed

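Total RNA (200 ng for each array) was labeled with Cy3 by the authors, who deposited spot intensities of the 4 arrays from Agilent Feature Extraction 10.7.3.1, which subtracted background and detrended within the array. The authors did not normalize these intensities between arrays. The deposited table of intensities for the series was equal to them at every spot. The authors' files also hold flags of 0 or 1 for spots above background, saturated or outlying. The Subio Platform fold changes named in the methods were not used.

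Control spots and outlier spots (145 to 168 of 43020 per array) were left out, and 0 spots were saturated. Repeat spots were averaged as log2 intensities, the 75th percentile over 39429 probes was subtracted, and each gene, named as in the files, was read from its brightest probe (highest mean of the 4 log2 values). A ratio needed that probe to be well above background on both arrays. Where the dimmer array was not, a bound was given from the dimmest probe so marked there, or from the gene's own signal if brighter.

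Of the 40 members, those at least 2-fold apart in any comparison were described with each array's signal, the others by value or range. From the further ATF4 and ER lists, the 4 highest and 4 lowest ratios per genotype were named, and from the eIF2 list all members. The members and lists were chosen with earlier results of these data known. Alternatives were array median scaling, quantile normalization, normexp background correction (offset 50, from the deposited mean and background intensities), 3 other filters on dim probes, averaging all probes per gene, the series' table, 1.5-fold and 3-fold thresholds and, chosen after seeing the data, the 75th percentile over spots. The steps were tested on simulated data with only repeat-spot noise and a shift per array. Variation between cultures or labelings was not simulated. RefSeq promoters (GRCm38.p6) matched 35 of 40 genes by symbol. Normexp was run with limma 3.58.1 in R 4.3.3, and all other steps with numpy 2.4.6, pandas 2.3.3 and matplotlib 3.10.9 in Python 3.11.15.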

Additional observations from a re-analysis of the deposited data

Results flagged for a closer look

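Ddit3 was singled out because it was at least 1.5-fold apart in opposite directions in the 2 genotypes, with a log2 ratio to doxorubicin of -0.71 in WT and 0.83 in p53-/- MEFs, a difference (WT minus p53-/-) of -1.53. With array median scaling the ratios were -0.98 and 0.53, so that the signs still differed but the p53-/- ratio no longer reached 1.5-fold. With 1 array per condition the difference was not tested. It had 1 probe, whose signal was well above background on all 4 arrays.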

How the results depend on the processing

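The 14 summary values of the report were recomputed under each alternative, except that the 1.5-fold and 3-fold thresholds apply to 4 counts alone. None of the medians and differences of medians changed sign, which counts cannot do. The series' table equals the intensities at every spot, so it could not change a value. A value was taken to have moved when it shifted by over 0.11 on the log2 scale or, for counts, by over 1.5 times. Array median scaling gave WT medians of -1.54 for the ATF4 targets and -0.71 for the ER folding genes and p53-/- medians of -1.06 and -0.91, with 0 members at least 2-fold higher in WT and 0 in p53-/- MEFs and 22 and 16 lower. This follows from the shift of all genes by that scaling, which left the ATF4 minus ER difference at -0.83 and -0.15. Requiring all 4 arrays above background, which drops Fgf21, gave -1.14 for the ATF4 targets in WT and -0.71 for the ATF4 minus ER difference. Normexp gave -0.95 for that difference, and quantile normalization left 1 member at least 2-fold higher in WT; the cause was not tested. A 1.5-fold threshold counted 26 members lower in WT and 22 in p53-/- MEFs (20.0% and 15.9% of all genes), and a 3-fold threshold 7 and 5 (4.18% and 2.26%), with 0 higher in either (5.07% and 3.82%). In p53-/- MEFs the ATF4 minus ER difference ranged from -0.24 (no filter on dim probes) to -0.13 (mean of all probes). Of the single ratios, the ones whose sign turned included Canx, Pdia3 and Sdf2l1 in WT (array median) and, for p53-/- over WT with doxorubicin, Trib3 (array median), Hspa5 (quantile) and Atf4 (mean of all probes), all small. The lowest signals called well above background (44.3 to 87.1) were below the brightest negative controls (77.5 to 250.1), which limits Fgf21 alone among the members. Each condition had 1 array and no replicates to pair. An additive fit of drug and genotype over the 4 arrays was not run.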
